A study of Mus musculus with 6 samples.

Results

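The transcripts described here are those of 10 genes of endoplasmic reticulum (ER) chaperones and the unfolded protein response, out of 31053 genes counted. They are Hspa5, Calr, Sdf2l1, Creld2, Manf, Dnajb9, Herpud1, Xbp1, Atf4 and Ddit3. The genes were chosen by symbol and not by a rule on measured values, but with earlier results of these data known. Each symbol belonged to 1 counted gene. Stromal vascular cells of inguinal white adipose tissue (iWAT) from C57BL/6 mice, either young at 9 weeks or aged at 57 weeks, were depleted of CD45+ immune cells by sorting and sequenced as single cells with a 3′ end kit. All mice spent 3 weeks at 30 °C. The thermoneutral (TN) group then stayed at 30 °C for 2 more weeks, the 3D cold group was moved to 6 °C for the last 3 days of that time, and the 14D cold group was at 6 °C for all 14 days. Each age and temperature gave 1 library, so that young and aged were compared with 3 libraries each and temperatures with 2 libraries each. The mice were males with no transgene for this experiment, obtained from 2 suppliers of C57BL/6 substrains. The methods note no pooling of animals for these libraries and say that pooling is stated where it was done, but the number of mice and the supplier behind each library are not given in the sources used here. With 1 library per age and temperature, the p-values do not measure the spread between replicate libraries or mice. Within a class, the error is what the terms for age and temperature leave, with 2 residual degrees of freedom. Across classes, it is what the terms for library and class leave. Either may be technical.

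Secreted and membrane proteins are folded in the ER, and fibroblasts, which make much of the extracellular matrix of adipose tissue, carry a large load of such proteins. Unfolded protein in the ER is sensed by IRE1, PERK and ATF6. Active IRE1 splices Xbp1 mRNA, which then encodes an active transcription factor. ATF6 is cut in the Golgi to release a transcription factor that raises chaperone genes such as Hspa5. PERK phosphorylates eIF2alpha, which slows translation in general but favours translation of Atf4 mRNA, and ATF4 in turn activates Ddit3, which encodes the pro-apoptotic factor CHOP. Counts of 3′ ends do not tell spliced from unspliced Xbp1 mRNA and do not measure ATF4 protein.

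On the GRCm38 assembly with GENCODE annotation, the genes of ER proteins lie as follows. Hspa5 (ENSMUSG00000026864), for the main ER Hsp70 chaperone BiP, is at chr2:34771970-34777547 on the plus strand. Calr (ENSMUSG00000003814), for the calcium-binding lectin chaperone calreticulin, is at chr8:84841850-84846934 on the minus strand. Sdf2l1 (ENSMUSG00000022769), for a component of ER chaperone complexes, is at chr16:17130138-17132383 on the minus strand. Creld2 (ENSMUSG00000023272), for an ER stress-inducible protein, is at chr15:88819646-88826683 on the plus strand. Manf (ENSMUSG00000032575), for a secreted ER-resident neurotrophic factor, is at chr9:106838312-106891979 on the minus strand. Dnajb9 (ENSMUSG00000014905), for the BiP co-chaperone ERdj4, is at chr12:44205559-44210326 on the minus strand. Herpud1 (ENSMUSG00000031770), for an ER membrane protein of ER-associated degradation, is at chr8:94386438-94395377 on the plus strand. The genes of transcription factors are Xbp1 (ENSMUSG00000020484) at chr11:5520659-5525893, Atf4 (ENSMUSG00000042406) at chr15:80255184-80257541 and Ddit3 (ENSMUSG00000025408) at chr10:127290774-127296288, each on the plus strand. A second counted entry, AC144852.1, lies inside Ddit3 on the same strand and had 0 UMIs in all 5 tested cell classes; reads that fit both entries belong to neither, so the level of Ddit3 may be understated.

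Of the promoters of these genes, 4 hold the letters of an ER stress response element, the sequence bound by ATF6 and XBP1 together with NF-Y, and they are shown because Hspa5, Creld2 and Herpud1 are among the genes called for temperature in Dpp4+ cells, while Calr, the fourth, was not called. Sdf2l1, which was also called, held none of the motifs searched. Sequences of 300 bases around the start site (250 before and 50 after) from RefSeq on GRCm38.p6 were matched for 9 of the 10 genes, all but Manf. On both strands, 4 motifs were searched: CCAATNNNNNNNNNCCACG (ERSE), ATTGGNCCACG (ERSE-II), TGACGTGG (UPRE) and TGATGNAAT (a CARE sequence of ATF4), none of which contains another of them. Each match is given 5′ to 3′ on its own strand, with the fixed letters in capitals.
Hspa5: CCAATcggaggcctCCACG
Creld2: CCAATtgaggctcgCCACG
Calr: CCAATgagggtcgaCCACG
Herpud1: ATTGGgCCACG
The ERSE of Hspa5 lies at chr2:34772025-34772043, on the strand of the gene and from 65 to 47 bases before the RefSeq start site. GENCODE starts Hspa5 upstream of that site, so that the motif lies inside the GENCODE span given above. That of Creld2 lies at chr15:88819520-88819538 and that of Calr at chr8:84847075-84847093, from 126 to 108 and from 162 to 144 bases before the RefSeq start, both on the opposite strand to the gene. The ERSE-II of Herpud1 lies at chr8:94386377-94386387, from 52 to 42 bases before the RefSeq start. Among all 32851 promoters of this length, 39 (0.119%) held ERSE, 12 (0.0365%) ERSE-II, 222 (0.676%) UPRE and 317 (0.965%) CARE. UPRE and CARE letters were found in 0 of the 9 windows, and the window of Sdf2l1 held none of the 4 motifs. Such absence says only that these letters are not there. Whether the motifs bear on the temperature calls was not tested.

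Cells were assigned to classes by marker genes. Of 68103 barcodes 57326 were kept, and the gates for the fibroblastic adipocyte stem and progenitor cells (ASPCs) held 21436 Dpp4+, 18860 Icam1+ and 6725 Cd142+ cells. The gates for endothelial-like and SMC/pericyte-like cells (smooth muscle) held 3800 and 753 cells, and those for Schwann-like and immune-like cells 99 and 240. Neither of the last 2 classes was tested; they numbered 6 to 35 and 25 to 55 cells in a library. The summed fibroblast markers were at 26966 to 66490 CPM (UMIs of a gene for each 1000000 UMIs of the class in a library) in the 3 ASPC classes, against 410 to 1071 CPM in endothelial-like and 2013 to 3405 CPM in SMC/pericyte-like cells. The 10 Icam1+ preadipocyte markers separated the ASPC classes from each other, at 13758 to 15539 CPM in Icam1+ cells against 788 to 1204 in Dpp4+ and 3773 to 6140 in Cd142+ cells, but not ASPCs from vascular cells. They were at 44752 to 64811 CPM in endothelial-like and 16334 to 35475 CPM in SMC/pericyte-like cells; the list holds Fabp4, Sparcl1, Col4a1 and Col4a2, which vascular cells are known to express. The 10 Cd142+ markers were at 2544 to 3720 CPM in Cd142+ cells, against 341 to 513 in Dpp4+ and 983 to 1218 in Icam1+ cells. In SMC/pericyte-like cells they were at 1469 to 3000 CPM, which overlaps the Cd142+ range. The libraries held 52068837 to 88508349 UMIs. The aged 14D cold library stood apart, with a median of 2588 UMIs per barcode against 6232 to 8954 in the others. In it 38.2% of barcodes before filtering were under 2000 UMIs, against 7.04% to 11.7% in the others. Of its gated Dpp4+, Icam1+ and Cd142+ cells 23.9%, 36.3% and 44.7% were under 2000 UMIs, against 0% to 2.59% elsewhere. Its Cd142+ class carried 165 CPM of 10 summed endothelial markers against 10.5 to 17.1 CPM in the other libraries, and its Icam1+ class 109 CPM against 8.28 to 13.5. Pairs of libraries shared 18 to 35 kept cell barcodes. The age, temperature and class results of the 10 genes were therefore also computed without that library, while those of age by cold and of the pathway lists were not.

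Apart from Dnajb9, whose endothelial difference depended on the scaling, the genes of ER proteins were at a higher level in ASPCs than in vascular cells. Levels between classes were compared on 30 sums of UMIs (6 libraries and 5 classes) with edgeR's quasi-likelihood F test, with library as a block, and a value was called when its Benjamini-Hochberg adjusted p, over all genes, was under 0.05. Between the 5 classes all 10 genes were called, where 92.3% of the 13901 genes tested were called, so that the call itself does not set these genes apart. All 10 genes passed the filter on low counts in each of the 5 classes. Their levels and differences on the TMM scale follow.

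Hspa5 was at 1987 ± 286 TMM-scaled CPM (SD, n = 6) in Dpp4+ cells, 2657 ± 373 in Icam1+ cells and 2533 ± 430 in Cd142+ cells, against 1032 ± 107 in endothelial-like and 1257 ± 130 in SMC/pericyte-like cells. The ranges of ASPC and vascular classes did not overlap for this chaperone, and the log2 difference from the mean of the ASPC classes was -1.19 ± 0.08 (SE) in endothelial-like cells (adjusted p = 9.46e-14). Sdf2l1 showed the widest gap of the 10 genes, at 98.5 ± 36.0, 65.9 ± 22.5 and 90.1 ± 31.0 TMM-scaled CPM in Dpp4+, Icam1+ and Cd142+ cells and at 18.9 ± 4.34 in endothelial-like cells, a log2 difference of -2.07 ± 0.12 (adjusted p = 7.09e-15). Calr and Manf were lower in endothelial-like cells by log2 differences of -1.31 ± 0.05 and -1.29 ± 0.08, and in SMC/pericyte-like cells by -1.37 ± 0.05 and -1.10 ± 0.09. Of the 10 genes, 9 were called lower in endothelial-like cells and 1, Ddit3, was not called there; the background was 77.9% of all genes called in either direction.

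Ddit3 went the other way in SMC/pericyte-like cells. It was at 119 ± 30.3 TMM-scaled CPM there and at 64.6 to 80.9 CPM on average in the other 4 classes, with a log2 difference of 0.74 ± 0.10 from ASPCs (adjusted p = 5.24e-07). The 9 other genes were called lower in SMC/pericyte-like cells than in ASPCs, where 57.7% of all genes were called. Dnajb9 differed little between ASPCs and endothelial-like cells, with a log2 difference of -0.20 ± 0.09 (adjusted p = 0.0472), while in SMC/pericyte-like cells it was -1.19 ± 0.11. These directions depend in part on the scaling: with library size alone the median of all genes moved from -0.04 to 0.28 in endothelial-like and from -0.09 to 0.34 in SMC/pericyte-like cells, the endothelial difference of Dnajb9 became 0.12 (adjusted p = 0.187) and that of Ddit3 became 0.27 (adjusted p = 0.00359), and the other called differences kept their sign, although that of Atf4 in endothelial-like cells was no longer called (-0.09, adjusted p = 0.215). The call of Dnajb9 in endothelial-like cells held in 3 of the 6 fits that left out 1 library and in 1 of the 4 other settings (RLE factors, thinned cells, no filter on low counts, library size alone).

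Among ASPCs, Icam1+ cells held more Hspa5 (log2 difference from Dpp4+ cells 0.41 ± 0.09, adjusted p = 0.000236), Xbp1 (0.50 ± 0.06, 6.06e-08), Manf (0.31 ± 0.09, 0.00349) and Calr (0.18 ± 0.06, 0.00755) and less Sdf2l1 (-0.57 ± 0.10, 1.7e-05); 62.1% of all genes were called in this comparison. Cd142+ cells also held more Hspa5 (0.34 ± 0.09), Xbp1 (0.40 ± 0.06), Manf (0.37 ± 0.09), Creld2 (0.30 ± 0.12) and Calr (0.16 ± 0.06) than Dpp4+ cells, with 45.2% of all genes called. Between Cd142+ and Icam1+ cells, with 34.5% of all genes called, Sdf2l1 was higher in Cd142+ cells (0.45 ± 0.10) and Ddit3 (-0.32 ± 0.09) and Atf4 (-0.23 ± 0.09) were lower. The calls for Calr and Creld2 between Cd142+ and Dpp4+ cells held in 4 and 1 of the 6 fits that left out 1 library, and that for Atf4 in 1 of 6. Those for Calr and Creld2 each held in 2 of the 4 other settings and were lost without the filter on low counts and with library size alone (adjusted p up to 0.123 for Calr and 0.0947 for Creld2). Herpud1 and Dnajb9 were not called between any pair of ASPC classes, with log2 differences from -0.09 ± 0.10 to 0.15 ± 0.07.

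**Figure D1:**
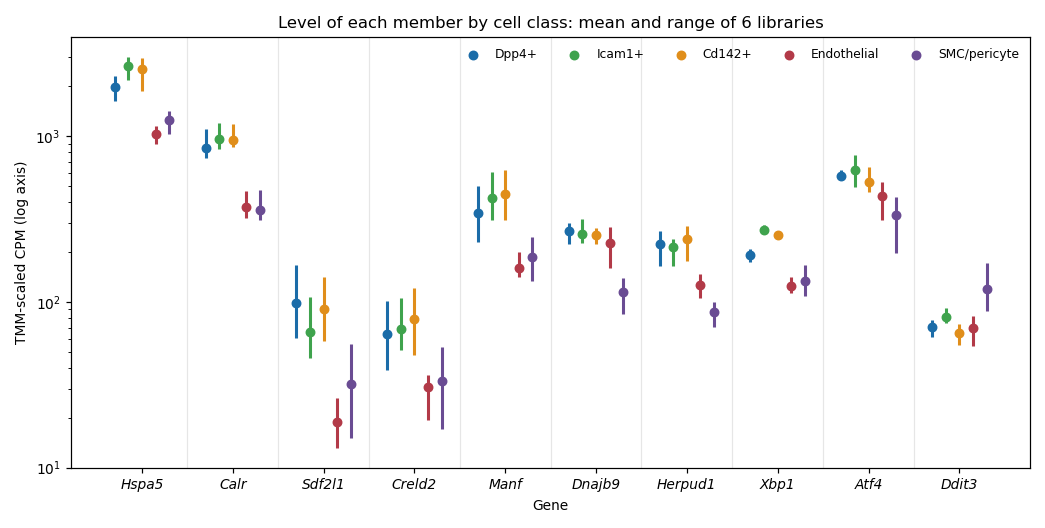
Level of the 10 genes in 5 cell classes, in TMM-scaled CPM on a log axis; points are means and lines the range over 6 libraries. Hspa5 and Calr are higher in all 3 ASPC classes than in the endothelial-like and SMC/pericyte-like classes without overlap, and Ddit3 has its highest mean, 119, in SMC/pericyte-like cells.

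In the small classes the levels were imprecise. Immune-like cells held 531 to 1338 CPM of Hspa5 (149 UMIs or more in each library) and Schwann-like cells 619.8 to 1426 CPM (21 UMIs or more). Sdf2l1 and Creld2 had 8 UMIs each in all Schwann-like cells together, which gives no usable level.

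Temperature was compared within each class, with age as a term, as an F test over TN, 3D cold and 14D cold. From here on, CPM of single genes were scaled by TMM factors within each class. This is not the scale across classes used above, and summed levels of lists were not scaled. In Dpp4+ cells 5 of the 10 genes were called, all higher after 3D and 14D cold than at TN: Creld2, Herpud1, Manf, Sdf2l1 and Hspa5. The background was 4.74% of 13337 genes called in either direction. In Icam1+ cells 3 genes were called, Sdf2l1, Creld2 and Manf (background 1.87%), and in Cd142+ cells 1, Creld2 (background 0.5%). In endothelial-like and SMC/pericyte-like cells 0 genes were called by edgeR or DESeq2, against backgrounds of 1.2% and 0.78%; an unadjusted p under 0.05 was seen for 5 and 2 genes.

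Creld2 in Dpp4+ cells was at 44.4, 52.7 and 93.4 CPM in the young TN, 3D cold and 14D cold libraries and at 35.9, 54.6 and 71.5 CPM in the aged ones. Both 14D cold libraries lay above both 3D cold libraries, and these above both TN libraries. The log2 fold change over TN was 0.42 ± 0.11 (SE) at 3D and 1.03 ± 0.11 at 14D (adjusted p = 0.00429), and the call held when each library was left out in turn. In Icam1+ cells Creld2 was at 45.3, 50.9 and 93.03 CPM in young and 48.1, 57.2 and 74.1 CPM in aged libraries (0.21 ± 0.12 and 0.84 ± 0.12, adjusted p = 0.0405), and in Cd142+ cells at 43.2, 59.3 and 108 CPM in young and 47.4, 73.2 and 89.6 CPM in aged libraries (0.55 ± 0.14 and 1.13 ± 0.14, adjusted p = 0.0294). The order of the 3 temperatures was thus the same at both ages in each ASPC class.

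Manf in Dpp4+ cells was at 239, 294 and 459 CPM in the young libraries and at 212, 322 and 382 CPM in the aged libraries, in the order TN, 3D cold, 14D cold. As for Creld2, the 3 temperatures did not overlap, and the log2 fold changes were 0.45 ± 0.10 at 3D and 0.89 ± 0.10 at 14D (adjusted p = 0.00605). In Icam1+ cells it was at 276, 329 and 540 CPM in young and at 295, 380 and 454 CPM in aged libraries, with log2 fold changes of 0.31 ± 0.12 and 0.80 ± 0.12 (adjusted p = 0.0432). In Cd142+ cells the changes were 0.42 ± 0.14 and 0.89 ± 0.14, and the gene was not called (adjusted p = 0.0582), although it was in 6 of the 9 alternative settings that kept all libraries. In SMC/pericyte-like cells they were 0.50 ± 0.20 and 0.70 ± 0.20 (adjusted p = 0.205). In endothelial-like cells they were 0.08 ± 0.11 and 0.23 ± 0.11 (adjusted p = 0.619), and neither was called.

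Sdf2l1 was at 76.0, 84.6 and 152 CPM in young and at 55.5, 79.5 and 94.9 CPM in aged Dpp4+ cells. Its 14D cold libraries were above the others, while the young TN and the aged 3D cold values lay close together. The log2 fold changes were 0.34 ± 0.12 at 3D and 0.90 ± 0.12 at 14D (adjusted p = 0.0119). In Icam1+ cells, where the gene was at 44.2, 54.4 and 95.3 CPM in young and 41.2, 50.8 and 65.6 CPM in aged libraries, they were 0.30 ± 0.12 and 0.90 ± 0.12 (adjusted p = 0.0344). In Cd142+ cells the 14D change of 0.93 ± 0.17 was as large, but was not called (adjusted p = 0.0924); it was in 6 of these 9 settings.

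Herpud1 had risen by 3D. In Dpp4+ cells it was at 150 CPM in young and 158 CPM in aged cells at TN, at 212 and 227 CPM after 3D, and at 245 and 241 CPM after 14D, with log2 fold changes of 0.51 ± 0.07 and 0.66 ± 0.07 (adjusted p = 0.00463). Its call held in each of the 6 fits that left out 1 library. In Icam1+ and Cd142+ cells its 14D values of 0.36 ± 0.09 and 0.51 ± 0.10 were not called (adjusted p = 0.168 and 0.118). Hspa5 in Dpp4+ cells was at 1569, 1739 and 2124 CPM in young and at 1502, 1932 and 2084 CPM in aged libraries, with changes of 0.26 ± 0.09 and 0.45 ± 0.09 (adjusted p = 0.0454). That call is the least firm of the 5, since it was lost without the young TN (0.141), young 3D cold (0.0669), aged TN (0.23) or aged 3D cold library (0.0797), where the figure in brackets is the adjusted p. The call for Sdf2l1 in Dpp4+ cells was lost without the young TN (0.056) or aged TN library (0.0578).

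Without the shallow aged 14D cold library all 5 genes were still called in Dpp4+ cells and all 3 in Icam1+ cells. In Icam1+ cells the calls of Sdf2l1, Creld2 and Manf were lost without the young 3D cold, aged TN or aged 3D cold library. Those of Creld2 and Manf were also lost without the young TN library. Without the young 3D cold library the 14D values of Sdf2l1, Creld2 and Manf were 0.89, 0.83 and 0.79, near the full values. Such a fit has 1 library at that temperature and fewer residual degrees of freedom. A lost call thus does not show that the library left out decided it. Creld2 in Cd142+ cells was not called without the young or the aged 3D cold library. Without age as a term none of the 9 values was called (adjusted p = 0.453 to 0.972). The 14D log2 fold changes of the 9 called values stayed between 0.40 and 1.37 under these omissions.

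The transcription factor genes, Calr and Dnajb9 were not called for temperature in any class, although Calr in Dpp4+ cells and Dnajb9 in endothelial-like cells, where its 14D value was negative, passed in some of the alternatives. Xbp1 in Dpp4+ cells was at 160 to 192 CPM over the 6 libraries, with changes of 0.11 ± 0.07 and 0.21 ± 0.07 (adjusted p = 0.182). Atf4 had 14D values of 0.01 ± 0.07, -0.16 ± 0.08 and -0.02 ± 0.11 in Dpp4+, Icam1+ and Cd142+ cells, and Ddit3 0.17 ± 0.11, -0.11 ± 0.10 and 0.05 ± 0.15; none was called. Calr in Dpp4+ cells was at 775, 758.5 and 1012 CPM in young and 694, 679.7 and 788 CPM in aged libraries, and its 14D value of 0.29 ± 0.08 missed the threshold (adjusted p = 0.0793). It was called in 4 of the 9 alternative settings, namely with DESeq2, without the filter on low counts, with equal cells thinned to 2000 UMIs and with classes from clusters (adjusted p over the 9 from 0.00832 to 0.685), and also without the aged 14D cold library (0.0068). Dnajb9 in Dpp4+ cells had a 14D value of 0.26 ± 0.07 (adjusted p = 0.125).

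**Figure D2:**
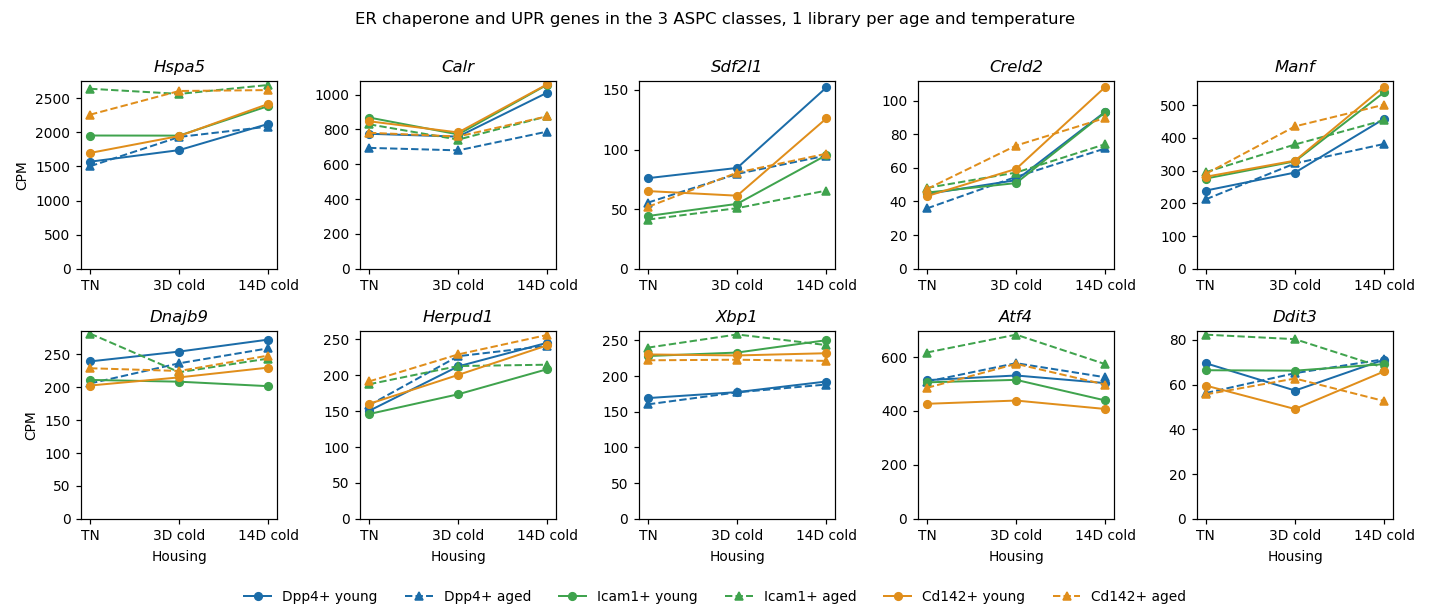
CPM (TMM-scaled within each class) of the 10 genes in each library of the 3 ASPC classes (colours), young (circles, solid lines) and aged (triangles, dashed lines), against housing (TN, 3D cold, 14D cold). Creld2 and Manf are higher after 14D cold than at TN in both ages and all 3 classes, and aged Icam1+ cells have more Atf4 than young Icam1+ cells at each temperature.

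Endothelial-like cells held 1319, 1028 and 1062 CPM of Hspa5 in young and 1299, 1145 and 1134 CPM in aged libraries, with both TN libraries above all 4 cold libraries and a 14D value of -0.25 ± 0.09 that was not called (adjusted p = 0.291). A test of the class by temperature terms on the 30 sums, added after the values were seen, asked whether classes differed in their temperature response. It called 0 of the 10 genes with edgeR, with 3 at an unadjusted p under 0.05 and a background of 0.0487%. For 14D cold, the response of endothelial-like cells minus the mean response of the ASPC classes was -0.57 ± 0.13 for Hspa5 (adjusted p = 0.183), -0.95 ± 0.25 for Creld2 (adjusted p = 0.212) and -0.62 ± 0.15 for Manf (adjusted p = 0.212), where 0.0278% of all genes were called. The same difference for SMC/pericyte-like cells was -0.26 ± 0.13 for Hspa5, -0.04 ± 0.43 for Creld2 and -0.52 ± 0.16 for Herpud1 (adjusted p = 0.715, 1 and 0.502), with a background of 0.0487%. A class-specific temperature response of these genes was therefore not called.

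**Figure D3:**
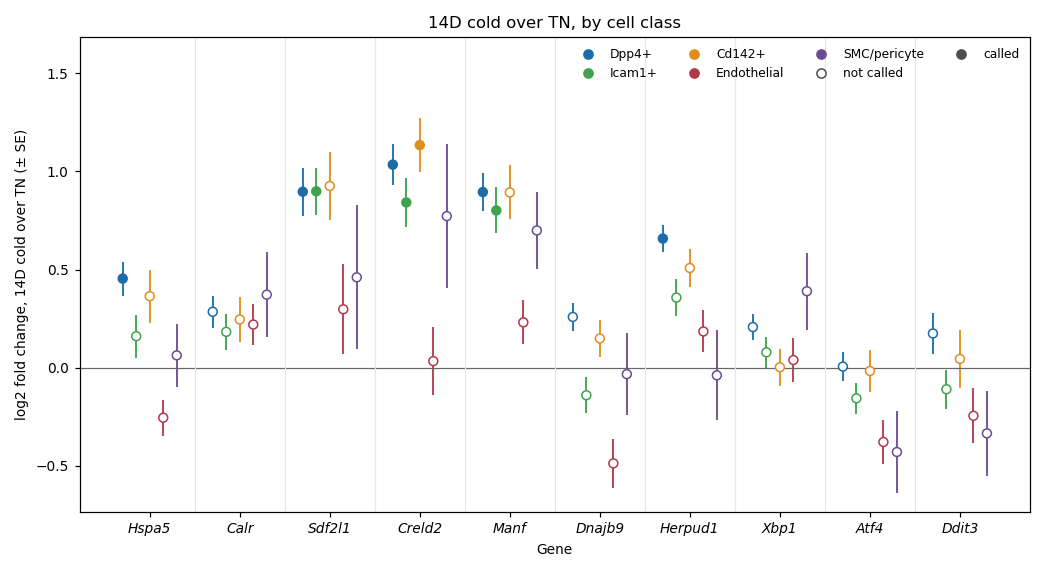
Log2 fold change of 14D cold over TN (points, with SE as bars) for the 10 genes in 5 cell classes (colours); filled points were called by the F test over the 3 temperatures. The filled points are Hspa5, Sdf2l1, Creld2, Manf and Herpud1 in Dpp4+ cells, Sdf2l1, Creld2 and Manf in Icam1+ cells and Creld2 in Cd142+ cells, and the endothelial-like value of Hspa5 is -0.25.

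Age was compared within each class with temperature as a term. Atf4 was the gene called higher in aged cells, in Icam1+ and endothelial-like cells, and Sdf2l1 the gene called lower, in Dpp4+ and SMC/pericyte-like cells. The other 8 genes were not called for age in any of the 5 classes. In Dpp4+ cells 1 of the 10 genes was thus called lower and 0 higher, against backgrounds of 7.81% and 7.89%, and in Icam1+ cells 1 higher and 0 lower, against 5.18% and 4%. In Cd142+ cells 0 genes were called by edgeR or DESeq2 (2 at an unadjusted p under 0.05; backgrounds 3.21% higher and 3.26% lower). In addition, 1 gene was higher in endothelial-like cells (backgrounds 0.698% higher and 1.09% lower) and 1 lower in SMC/pericyte-like cells (0.605% higher and 0.191% lower).

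Atf4 in Icam1+ cells was at 506, 516 and 439 CPM in the young TN, 3D cold and 14D cold libraries and at 617, 683 and 574 CPM in the aged ones. Each aged library was above each young library, and the log2 fold change was 0.36 ± 0.07 (SE, adjusted p = 0.0218). In endothelial-like cells Atf4 was at 512, 415 and 352 CPM in young and at 587, 589.5 and 505 CPM in aged libraries, so that the young TN value fell within the aged range, and the log2 fold change was 0.41 ± 0.09 (adjusted p = 0.0404). Aged values also lay above young values in Cd142+ cells, at 427, 439 and 408 CPM against 486, 575 and 498 CPM (0.29 ± 0.09, adjusted p = 0.0878), and in SMC/pericyte-like cells, at 423, 350 and 254 CPM against 546, 503 and 492 CPM (0.61 ± 0.17, adjusted p = 0.111), but neither was called. Dpp4+ cells showed 517 ± 14.2 CPM in young and 537 ± 35.7 CPM in aged libraries (SD, n = 3 each), a log2 fold change of 0.05 ± 0.06.

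Both Atf4 calls were lost in some fits that left out 1 library. The young and the aged omission at 1 temperature gave nearly the same log2 fold change, so they are not separate checks. In Icam1+ cells the log2 fold change was 0.33 to 0.40 when a library was left out, and the call was lost without the young 3D cold (0.167), young 14D cold (0.0792), aged 3D cold (0.153) or aged 14D cold library (0.0739, adjusted p). In endothelial-like cells it was 0.35 to 0.51, and the same 4 omissions lost the call (adjusted p = 0.103 to 0.363), as did DESeq2 (0.102), cells thinned to 2000 UMIs (0.0733) and fixed cell limits (0.057). In aged SMC/pericyte-like cells Fos, Fosb, Junb and Egr1, of 10 dissociation and heat shock genes, were called higher, against a background of 0.605%. The 10 had a median log2 fold change of 0.49 and all 10 had positive values. Their summed level was 24465 to 30508 CPM in aged against 17646 to 22949 CPM in young libraries. In endothelial-like cells that sum was 17750 to 19754 CPM in aged and 17619 to 18777 CPM in young libraries. There 0 of the 10 were called, against backgrounds of 0.698% higher and 1.09% lower. In Icam1+ cells the sum was 23214 to 33345 CPM in aged and 26252 to 27141 CPM in young libraries. There 1 of the 10 was called higher and 0 lower, against 5.18% and 4%. The part of dissociation genes in the Atf4 values was not tested.

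Sdf2l1 in Dpp4+ cells was lower in the aged library at each temperature, at 55.5, 79.5 and 94.9 CPM against 76.0, 84.6 and 152 CPM in young libraries, although the ranges overlap. The log2 fold change was -0.41 ± 0.10 (adjusted p = 0.026). It was -0.26 without the young 14D cold library (adjusted p = 0.0738), and the call was also lost without the young TN (0.101) or the aged TN library (0.103). In SMC/pericyte-like cells Sdf2l1 was at 44.2, 68.7 and 71.8 CPM in young and at 19.5, 24.7 and 19.4 CPM in aged libraries, without overlap, and the log2 fold change was -1.46 ± 0.31 (adjusted p = 0.0213). That value rests on 113 UMIs in all, with as few as 6 in 1 library. With fixed cell limits for all libraries it was -0.76 (adjusted p = 0.201) and with classes taken from clusters -0.85 (adjusted p = 0.108), and the call was lost without the young 14D cold (0.0554) or the aged TN library (0.0889).

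Several values were close to the threshold for age, and those of Calr in Dpp4+ and Hspa5 in Icam1+ cells passed it in 6 and 7 of the 9 alternative settings. Neither passed it in any fit that left out 1 library, where the log2 fold changes were -0.26 to -0.16 and 0.28 to 0.41. Calr was at 848 ± 142 CPM in young and 720.5 ± 58.7 CPM in aged Dpp4+ cells (-0.23 ± 0.07, adjusted p = 0.052). Hspa5 was at 1953, 1951 and 2386 CPM in young and at 2638, 2563 and 2694 CPM in aged Icam1+ cells, without overlap (0.33 ± 0.09, adjusted p = 0.0652), and Dnajb9 had 0.26 ± 0.08 in the same class (adjusted p = 0.0795). In endothelial-like cells Dnajb9 had 0.39 ± 0.10 (adjusted p = 0.0793) and Manf -0.28 ± 0.09 (adjusted p = 0.152). Creld2 in SMC/pericyte-like cells had a value of -1.004 ± 0.30 from 116 UMIs (adjusted p = 0.154). Xbp1 and Ddit3 had age values between -0.11 and 0.27 in the 5 classes, with adjusted p-values from 0.201 to 0.952.

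**Figure D4:**
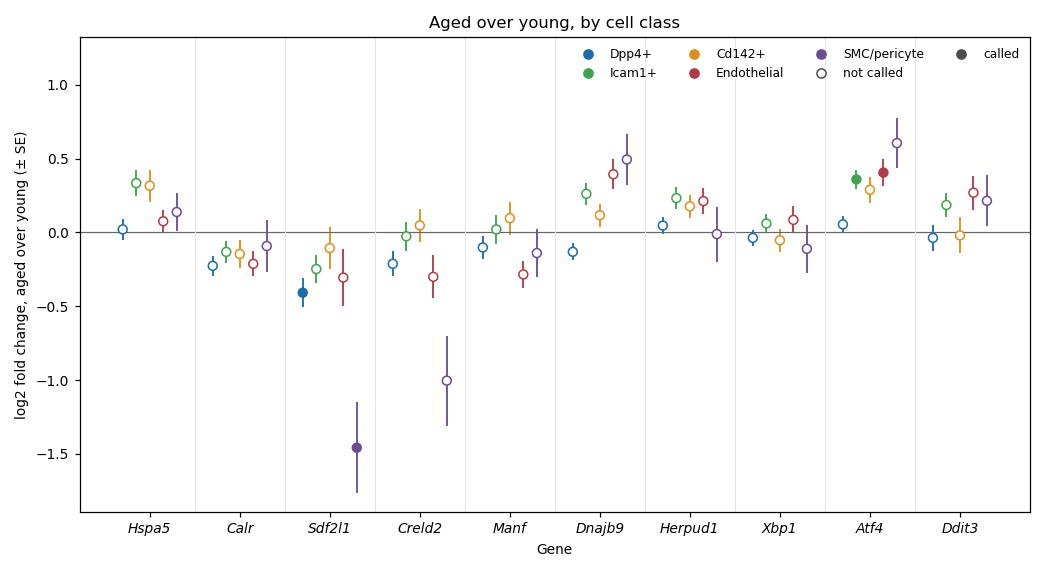
Log2 fold change of aged over young (points, with SE as bars) for the 10 genes in 5 cell classes (colours); filled points were called. The 4 filled points are Atf4 in Icam1+ and endothelial-like cells (0.36 and 0.41) and Sdf2l1 in Dpp4+ and SMC/pericyte-like cells (-0.41 and -1.46).

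Whether the age effect differed between classes was tested on the 30 sums. It was not called for any of the 10 genes (edgeR, background 2.14%), with Sdf2l1, Atf4 and Dnajb9, 3 genes, at an unadjusted p under 0.05 and adjusted p-values of 0.18, 0.211 and 0.29. Whether the cold response differed between ages was tested as an interaction with the 2 cold times pooled. A change from 3D to 14D cold, as for Creld2 in Dpp4+ cells (0.42 and 1.03 over TN), thus counted as error. None of the 10 genes was called in any class with edgeR or DESeq2, and 0 were at an unadjusted p under 0.05 with edgeR. The backgrounds were 0%, 0%, 0% and 0% in Dpp4+, Icam1+, Cd142+ and endothelial-like cells and 0.0281% in SMC/pericyte-like cells. The interaction of Creld2 in Dpp4+ cells was 0.09 ± 0.46 (SE) and that of Sdf2l1 in Icam1+ cells -0.26 ± 0.47, with standard errors larger than those of the temperature effects themselves, so that no such difference was detectable and none is shown to be absent.

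The rest of the pathway was read from lists. Of 7 sensors and transducers in Dpp4+ cells, Atf6, one of the sensors, was higher in the cold (0.41 ± 0.07 at 3D and 0.32 ± 0.07 at 14D, adjusted p = 0.024), from 42.2 and 43.3 CPM at TN to 53.0 to 58.3 CPM in the cold libraries. Eif2ak3, which encodes PERK, was lower with age, at 22.8 to 23.9 CPM in aged against 26.6 to 29.1 CPM in young libraries (-0.25 ± 0.07, adjusted p = 0.0325). These are 1 of 7 genes in each test, where 4.74% of all genes were called for temperature and 7.81% lower with age. Mbtps1, a protease that cuts ATF6, had an age value of -0.15 ± 0.06 (adjusted p = 0.12) and Eif2s1, for eIF2alpha, a 14D value of 0.31 ± 0.08 (adjusted p = 0.093); neither was called. The list had 0 called genes for age and for temperature in the other 4 classes, with at most 2 of its genes at an unadjusted p under 0.05 in each test there. Over all genes in these classes 0.191% to 5.18% were called in 1 direction with age and 0.5% to 1.87% for temperature. The 0 therefore does not set this list apart.

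Of 18 genes of the ER folding machinery in Dpp4+ cells, 5 were called for temperature, each higher at 14D, and 7 were called lower and 0 higher with age. Over all genes 4.74% were called for temperature, 7.81% lower and 7.89% higher with age. Hyou1, an ER Hsp70-like chaperone, was at 39.6, 46.0 and 65.7 CPM in young and at 33.8, 45.1 and 53.9 CPM in aged libraries (14D 0.70 ± 0.08, adjusted p = 0.00709). Dnajb11, a BiP co-chaperone, had 0.57 ± 0.07 at 14D (adjusted p = 0.00902) and -0.31 ± 0.06 with age (adjusted p = 0.00871). Pdia6, a disulfide isomerase, had -0.34 ± 0.06 with age (adjusted p = 0.0056), at 221, 216 and 285 CPM in aged against 282, 257 and 377 CPM in young libraries. The list's median log2 fold change with age was -0.20, against 0.00 over all genes tested, and its median at 14D cold was 0.22 against -0.01. In Icam1+ cells 1 gene of this list was lower with age and 0 were called for temperature (9 at an unadjusted p under 0.05), and in Cd142+ cells 2 were lower with age and 1, Hyou1, was higher in the cold (over all genes 4% and 3.26% lower with age and 1.87% and 0.5% called for temperature). In endothelial-like and SMC/pericyte-like cells 0 were called in either test, with 8 and 4 at an unadjusted p under 0.05 for age and 2 and 0 for temperature. Few of all genes were called there: 1.09% and 0.191% lower and 0.698% and 0.605% higher with age, and 1.2% and 0.78% for temperature. The 0 therefore does not set this list apart.

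Of 18 genes of ER-associated degradation and translocation, 4 were lower with age in Dpp4+ cells, 4 in Icam1+ cells and 2 of the 17 tested in Cd142+ cells, and 0 were higher. The shares of all genes called lower were 7.81%, 4% and 3.26%. Ssr2, a subunit of the translocon-associated complex, was at 83.8, 76.3 and 91.9 CPM in aged against 114, 110 and 134 CPM in young Dpp4+ cells (-0.51 ± 0.06, adjusted p = 0.000488). Erlec1, an ER lectin of degradation, had -0.36 ± 0.06 (adjusted p = 0.00672). Edem1, which hands misfolded glycoproteins to degradation, and Syvn1, a ubiquitin ligase of the same path, were the 2 genes of this list called for temperature in Dpp4+ cells, at 0.43 ± 0.08 and 0.56 ± 0.10 for 14D (adjusted p = 0.0294 and 0.0413), where 4.74% of all genes were called. The list's median in Dpp4+ cells was -0.15 with age and 0.19 at 14D cold. In Icam1+ and Cd142+ cells 0 of its genes were called for temperature by edgeR (background 1.87% and 0.5%), with 5 and 5 at an unadjusted p under 0.05. In endothelial-like and SMC/pericyte-like cells 0 of its genes were called, with 3 and 3 at an unadjusted p under 0.05 for age and 1 and 2 for temperature. The shares of all genes called there were 1.09% and 0.191% lower and 0.698% and 0.605% higher with age, and 1.2% and 0.78% for temperature.

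Of 18 targets of PERK and ATF4, 17 passed the filter on low counts in each ASPC class. With age, 3, 2 and 3 of the 17 were called lower and 0 higher in Dpp4+, Icam1+ and Cd142+ cells, where 7.81%, 4% and 3.26% of all genes were called lower, and 7, 6 and 6 of the 17 had positive values. Atf5, itself a transcription factor, was at 123, 132 and 130 CPM in aged against 166, 164 and 200.5 CPM in young Dpp4+ cells (-0.46 ± 0.07, adjusted p = 0.00267), and Nupr1, a stress-induced chromatin protein, had -0.43 ± 0.07 (adjusted p = 0.00409). In Icam1+ cells, where Atf4 was higher with age, Mthfd2 and Psat1, enzymes of one-carbon and serine metabolism, were lower (-0.39 and -0.44, adjusted p = 0.0384 and 0.0432). In endothelial-like cells Phgdh, the first enzyme of serine synthesis, was higher (1.47, adjusted p = 0.029) and Nupr1 lower (-0.99, adjusted p = 0.0209). That is 1 of 15 tested genes in each direction, where 0.698% of all genes were called higher and 1.09% lower. Ddit4, an inhibitor of mTORC1 signalling, was lower in the cold in Dpp4+ cells (-0.89 ± 0.19 at 3D and -0.96 ± 0.19 at 14D, adjusted p = 0.0356), at 32.6 and 21.0 CPM at TN and 11.6 to 17.4 CPM in the cold. Ddit4 was also lower in the cold in Icam1+ cells, and Ppp1r15a, which reverses eIF2alpha phosphorylation, in SMC/pericyte-like cells (-0.89 at 14D, adjusted p = 0.037). For temperature, 1 of 17 genes was thus called in Dpp4+ cells, 1 of 17 in Icam1+ cells and 1 of 11 tested in SMC/pericyte-like cells. Over all genes the shares called were 4.74%, 1.87% and 0.78%. Cebpg, a partner of ATF4, had a 14D value of 0.32 ± 0.07 that was not called (adjusted p = 0.0585).

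Dissociation and heat shock genes, which tissue digestion is known to induce, were listed beside the ER genes. In Dpp4+ cells 1 of the 10 was called for temperature (background 4.74%), the immediate early gene Ier2, which was lower in the cold (-0.61 ± 0.09 at 14D, adjusted p = 0.0182), and the list's median at 14D was -0.28; Egr1 had -0.47 ± 0.11 (adjusted p = 0.0855). With age, the heat shock gene Hspa1b (0.33 ± 0.06, adjusted p = 0.00439) and Junb (0.29) were higher and the heat shock co-chaperone Dnajb1 (-0.40 ± 0.07, adjusted p = 0.00597) was lower, against backgrounds of 7.89% higher and 7.81% lower. The summed level was 18743 and 22260 CPM at TN, 20347 and 19373 CPM after 3D and 17298 and 16072 CPM after 14D in young and aged Dpp4+ cells. Its part in the values of the 10 ER genes was not tested.

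Across the 30 sums, with each class's mean subtracted, the 10 genes fell into patterns that are given as a description, since sums of 1 library share its depth and handling. Sdf2l1, Creld2 and Manf varied together, with Pearson r of 0.87 for Sdf2l1 and Creld2 and 0.83 for Creld2 and Manf. Atf4 varied with Dnajb9 (r = 0.80) and Ddit3 (r = 0.51), and against Sdf2l1 (r = -0.67) and Calr (r = -0.64). Of 6095 genes with a mean of at least 20 CPM, the 5 most like Hspa5 were Srrm1 (r = 0.73), Hsp90aa1 (0.72), Hsp90ab1 (0.66), Ran (0.66) and Selenok (0.65), and those most like Ddit3 were Prr14 (0.79), Adh7 (0.78), Rtf1 (0.70), Mfap1b (0.68) and D5Ertd579e (0.67).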

How the data were processed

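Per the labels and the methods, the authors aligned reads to mm10 with Cell Ranger and deposited raw UMI counts per gene and called barcode, without normalization; their later filters and integration are not in these counts. Barcodes with over 200 genes were kept if, on a log10 scale, their UMIs and genes were no more than 3 median absolute deviations from that library's own median, and their mitochondrial percentage no more than 3 above it. A cell was non-fibroblastic with at least 4 of 10 markers of exactly 1 such list and under 70 fibroblast-marker UMIs per 10000, and an ASPC with at least 100 and under 4 markers of each other list; ASPCs went to the subtype with the highest mean scaled score by a margin of 0.1, else to none (2893 cells). This gate was set after the marker distributions were seen. No doublet caller was run, and 1984 cells with both kinds of marker stayed out of the classes.

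UMIs were summed per library and class and tested with edgeR 4.0.16 in R 4.3.3 (quasi-likelihood F test, TMM, filterByExpr, Benjamini-Hochberg over all genes, threshold 0.05). SEs were obtained from the log2 fold change and F. Scripts were tested on simulated data. Alternatives were DESeq2 1.42.0 and those listed in the closing section. The 10 genes, the pathway lists and the tests were chosen with earlier results of these data known. Of each pathway list, the 2 genes with the smallest p for age and for temperature in Dpp4+ cells are named; other pathway genes named were chosen after their values were seen. Totals of 52068837 to 88508349 UMIs set the precision. Gene positions are from GENCODE on GRCm38, the assembly of mm10, matched by gene identifier for 10 of 10 genes.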

Additional observations from a re-analysis of the deposited data

How the results depend on the processing

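Counts of called genes in this section are out of 10. The shares of all genes called under each alternative are not given here. A change of a count is therefore not read as a result about these genes. For age in Dpp4+ cells (1 called) the count was 2 with DESeq2, with cells of at least 2000 UMIs, with fixed cell limits, with a stricter gate and with classes from clusters, 3 without the filter on low counts, and 0 without a temperature term. In Icam1+ cells (1) it was 2 with DESeq2, without the filter, with equal cells thinned to 2000 UMIs, with cells of at least 2000 UMIs, with fixed limits and with the stricter gate, 3 with classes from clusters and 0 without a temperature term. In Cd142+ cells (0) it was 2 with classes from clusters. In endothelial-like cells (1) it was 0 with DESeq2, without a temperature term and with fixed limits, and 2 without the filter. In SMC/pericyte-like cells (1) it was 0 with DESeq2, which gave no adjusted p for Sdf2l1, without a temperature term, with thinned cells, with fixed limits and with classes from clusters, and 2 without the filter. For temperature, the fit without an age term called 0 genes in the 3 ASPC classes (5, 3 and 1 with the term). In Dpp4+ cells the count was 6, with Calr as the sixth, with DESeq2, without the filter, with thinned cells and with classes from clusters, and 5 in the other settings; in Icam1+ cells it was 3 in each other setting. In Cd142+ cells the count was 3 with DESeq2, thinned cells, cells of at least 2000 UMIs and the stricter gate, and 4 without the filter and with classes from clusters. In endothelial-like cells it was 1 without the filter and in SMC/pericyte-like cells 1 with fixed limits. The cause of these changes was not tested.

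With each library left out in turn, the counts for age ranged from 0 to 2 in Dpp4+, 0 to 1 in Icam1+, 0 to 2 in endothelial-like and 0 to 1 in SMC/pericyte-like cells, and were 0 in Cd142+ cells. Those for temperature ranged from 3 to 6, 0 to 3, 0 to 3 and 0 to 1 in Dpp4+, Icam1+, Cd142+ and endothelial-like cells and were 0 in SMC/pericyte-like cells. The count for age by class ranged from 0 to 1. With library size alone, an alternative added after seeing the data, the endothelial differences of Dnajb9 and Ddit3 from ASPCs changed sign to 0.12 and 0.27. Of 2098 values of single genes under the alternatives, 2 changed the sign of a called value or became called with the other sign, 76 lost and 55 gained a call, and 79 changed sign with neither value called. No paired analysis was possible because each group is 1 library and the labels number no replicates. Depth limits SMC/pericyte-like cells, whose sums hold 84 to 277 cells per library, and the aged 14D cold library.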
